A study of Mus musculus with 12 samples.

Results

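The 47 genes described here are 34 collagen chains and 13 genes whose products fold, trim or crosslink collagen: prolyl and lysyl hydroxylases, the collagen chaperone, a propeptidase and its enhancer, and lysyl oxidases. They were taken from a list of gene symbols and found among the 54232 genes of the count files through their Ensembl identifiers, and all 47 had at least 15 reads summed over the libraries. Bulk RNA-seq had been made from dorsal skin wounds of male C57BLKS/J mice with the genotype Lepr (db/db), labelled 12.5 weeks old; these mice lack a working leptin receptor and are obese and diabetic. Every animal of every group carried that genotype, so no comparison here is against a mouse without it. Wounds were made with a 6 mm full-thickness punch and collected on day 10. They were covered with Tegaderm film dressing alone (TD, 5 libraries), with a patch made to impose about 30% strain (Strain, 4 libraries), or with a patch that imposed none (No Strain, 3 libraries).

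Collagens are built of alpha chains that wind around each other into a long helix. Fibrillar chains such as those of types I and III form the fibres of dermis and scar, and type IV chains form the sheet-like network of basement membranes under epidermis and around vessels, fat and muscle cells. Before secretion the chains are hydroxylated on proline and lysine and held by a chaperone; outside the cell their end pieces are cut off and lysyl oxidases crosslink them.

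The libraries held 20354677 to 25059371 counted reads, and the members took 5.24 to 8.99% of them. Levels below are CPM, read counts relative to library totals scaled with TMM factors, in the order of the replicate numbers. Fold changes are on the log2 scale with their standard errors from edgeR's quasi-likelihood test over all 3 groups, and p-values were adjusted by Benjamini-Hochberg over 18618 genes, with a threshold of 0.05. Intervals of 95% are normal intervals from the SE. The labels do not say whether libraries of a group came from separate mice, so p-values measure only the spread between these samples. TD titles carry the numbers 1 to 6 and patch titles 7 to 15, so whatever that order stands for and the dressing cannot be told apart. Titles also end in L or R, which the labels do not explain, and these are unevenly spread: 1 L and 4 R in TD, 3 L and 1 R in Strain, and 2 L and 1 R in No Strain. Markers of other cells differed between the dressings. The summed CPM of 7 skeletal muscle markers was 5861 to 13869.9 in TD, 2601 to 4937 in Strain and 3576 to 8171 in No Strain. For 7 neutrophil markers it was 365 to 1569, 730.3 to 8510.1 and 1809 to 5028 in the same order, and for 6 adipocyte markers 999 to 2191, 709 to 1056 and 525 to 797. Most of the neutrophil sum came from S100a8 and S100a9, and other markers ranked the libraries differently. Strain replicate 1 had the highest sum but 579 reads of Cxcr2 and 1288 of Csf3r. No Strain replicate 3 had 1758 and 4807. Schwann cell markers (5 genes) summed to 60.4 to 131, 29.2 to 63.1 and 27.8 to 58.7, with 5 of 5 called lower for both patches together. Chondrocyte markers (5 genes) summed to 27.0 to 50.5, 17.4 to 24.99 and 15.3 to 23.8, with 3 of the 3 tested called lower, and 4 wound keratinocyte markers to 2567 to 3868, 3511 to 10173 and 3288 to 10774.5, with 2 called higher. The chondrocyte sum was mostly Sox9, with up to 1134 reads in a library. Acan, Matn3, Hapln1 and Cnmd reached at most 112, 30, 10 and 7, so the sum says little about cartilage cells. For 8 fibroblast markers the ranges overlapped (3668 to 5717 in TD, 4166 to 6783 in Strain, 4168 to 5618 in No Strain). Sums of 6 differentiated epidermis markers overlapped too (4940 to 8050 in TD, 5371 to 8078 in Strain, 1596 to 9275 in No Strain). No Strain replicate 3, at 1596 CPM, lay far below all other libraries in these. In whole-wound RNA, fewer cells of a type and less RNA per cell cannot be told apart, for any gene below. The part of these markers in the results was not tested except by the covariate fits given below.

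Between the patch groups, no collagen or collagen-processing gene passed the test. Of 46 members tested, 0 differed for Strain minus No Strain by edgeR's quasi-likelihood test, where the background was 0% of all genes, and 0 members had an unadjusted p under 0.05 against 1045 of all genes. DESeq2 and limma-voom also called 0 members. Against TD, by contrast, both patches had members past the threshold, more of them lower than higher. For Strain minus TD 9 members passed, which is 19.6% of those tested against a background of 12.6% of all genes. Of these, 1 was higher (background 6.2%) and 8 were lower (background 6.41%). For No Strain minus TD 12 members passed, or 26.1% against 17.8%, with 4 higher (background 9.35%) and 8 lower (background 8.4%). The mean of both patch groups minus TD gave 14 members, or 30.4% against 24.4%, with 4 higher (background 12.4%) and 10 lower (background 12.1%). Without regard to any test, 9 members had no overlap between Strain and TD (19.6% against 14.6% of all genes), 15 had none between No Strain and TD (32.6% against 26.7%) and 9 had none between TD and both patch groups together (19.6% against 11%). All comparisons with TD share its 5 libraries. Outside collagen IV, 6 of 40 members (15%) passed for Strain minus TD and 6 of 40 (15%) for No Strain minus TD, near or below the background of each. Collagen IV was not itself a listed family but part of the listed basement membrane chains. Members shifted little as a list: the median log2 fold change of the 46 was -0.14 for Strain minus TD and -0.03 for No Strain minus TD, against 0.02 and 0.00 over all genes.

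Single libraries carried part of these counts. For Strain minus TD the count was 4 without Strain replicate 2, where 4.75% of all genes were called, and 5 without Strain replicate 1 (8.92% of all genes), TD replicate 3 (7.03%) or TD replicate 4 (6.88%). For No Strain minus TD it was 4 without No Strain replicate 3, where 7.88% of all genes were called. That library is the one low in differentiated epidermis markers. The share of all genes called fell in each of these fits too. With the title letter as a covariate, 4 members were called for Strain minus TD and 5 for No Strain minus TD, against 4.29% and 11.5% of all genes. In that fit Col4a4, Col4a6, Col17a1, Col23a1 and Loxl4 missed the threshold for Strain minus TD (edgeR, adjusted p 0.0634 to 0.119), and Col4a1, Col4a2, Col4a3, Col8a2, Col17a1, Col24a1, Col26a1 and Loxl4 missed it for No Strain minus TD (adjusted p 0.0508 to 0.109), while 1 member not called before passed. With the muscle marker level as a covariate the members called were 0 for Strain minus TD, 1 for No Strain minus TD and 0 for both patches, and all genes called were 1, 331 and 11; with the neutrophil marker level the members called were 0 in all 3, and all genes called were 1, 0 and 1. Each covariate was the mean log2 CPM of its list. For muscle neither this mean nor the sum overlapped between TD and Strain. That covariate and the dressing therefore carry much of the same information. The neutrophil covariate shares information with the dressing too. All 7 neutrophil markers had a positive log2 fold change in each comparison with TD. Their sums did not overlap between TD and No Strain. Reads of the neutrophil markers Cxcr2, Csf3r and Mmp8 were higher in every patch library than in every TD library. The plot of fold changes for all members tested shows the calls by family. Of the 6 collagen IV chains 3 passed for Strain minus TD and 6 for No Strain minus TD, and of the 10 fibrillar chains 0 and 1 passed, beside 12.6% and 17.8% of all genes. The collagen IV chains are a part of the listed family of 8 basement membrane chains. Its other chains, Col15a1 and Col18a1, passed in neither of these comparisons.

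**Figure D1:**
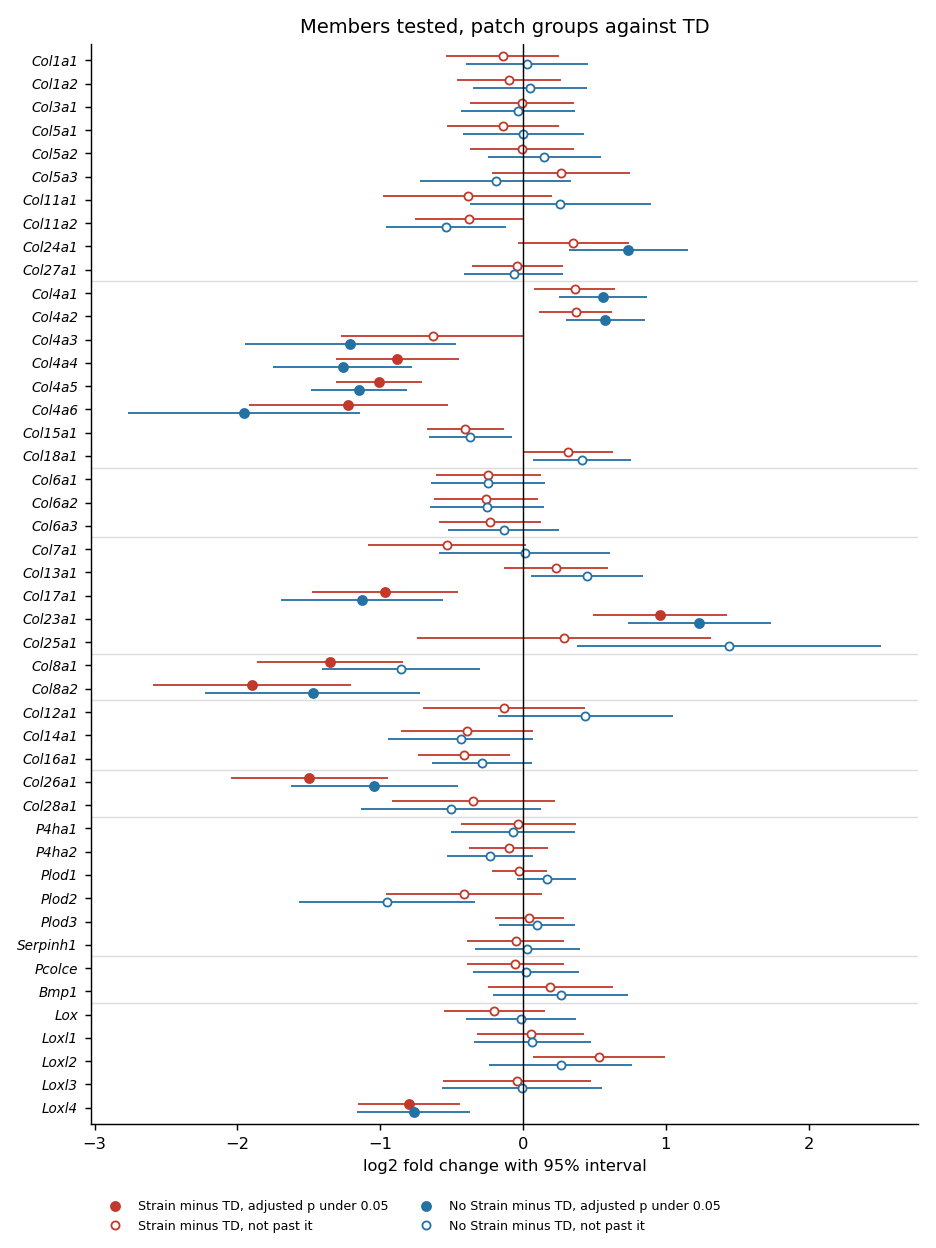
Log2 fold changes of the 46 members tested, for Strain minus TD (red) and No Strain minus TD (blue), with 95% intervals; filled points have an adjusted p under 0.05, and grey lines separate the families. Filled points lie mostly among the collagen IV chains and the chains Col17a1, Col23a1, Col8a1, Col8a2 and Col26a1, while the main fibrillar chains sit near 0.

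Collagen IV genes split by pair. Col4a1 and Col4a2 encode the chains found in nearly every basement membrane, vessels included, and both were higher under the No Strain patch. Col4a3, Col4a4, Col4a5 and Col4a6 encode minor chains, and all 4 were lower; the chains of Col4a5 and Col4a6 are known from the basement membrane of epidermis and smooth muscle. These genes lie in the mouse genome (GRCm38) as head-to-head pairs on opposite strands, and each pair moved in 1 direction, so the DNA between their starts is shown here. Col4a1 (ENSMUSG00000031502, chr8:11198423-11312826, minus strand) and Col4a2 (ENSMUSG00000031503, chr8:11312805-11449287, plus strand) overlap by 22 bases. Col4a4 (ENSMUSG00000067158, chr1:82448423-82586849, minus strand) and Col4a3 (ENSMUSG00000079465, chr1:82586921-82722059, plus strand) leave 71 bases between them. Col4a6 (ENSMUSG00000031273, chrX:141165403-141474076, minus strand) and Col4a5 (ENSMUSG00000031274, chrX:141475385-141689234, plus strand) leave 1308 bases, of which the parts next to each start are printed. Capitals mark a match, on either strand, to the CCAAT box (letters CCAAT), to the core of the GC box (letters GGGCGG) or to the TATA box (letters TATAAA). Each stretch reads 5′ to 3′ on the strand named.
Overlap of Col4a1 and Col4a2, chr8:11312805-11312826, plus strand: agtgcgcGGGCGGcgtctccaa
Gap between Col4a3 and Col4a4, chr1:82586850-82586920, minus strand: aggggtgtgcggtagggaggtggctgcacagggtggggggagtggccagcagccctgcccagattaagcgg
Before Col4a5, chrX:141475169-141475384, plus strand: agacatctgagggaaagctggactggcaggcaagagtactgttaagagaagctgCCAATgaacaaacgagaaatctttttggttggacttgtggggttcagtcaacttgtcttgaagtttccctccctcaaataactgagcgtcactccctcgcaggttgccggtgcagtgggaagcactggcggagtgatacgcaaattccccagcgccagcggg
Before Col4a6, chrX:141474077-141474326, minus strand: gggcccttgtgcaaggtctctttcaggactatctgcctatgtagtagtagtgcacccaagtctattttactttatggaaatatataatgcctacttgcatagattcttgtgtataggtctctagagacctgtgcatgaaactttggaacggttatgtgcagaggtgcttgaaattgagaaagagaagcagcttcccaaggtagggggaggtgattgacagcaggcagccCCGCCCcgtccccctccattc

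In the 300-base RefSeq windows of the same build around the gene starts, searched on both strands, CCAAT was matched once for Col4a1, Col4a2 and Col4a5 and not for Col4a4 or Col4a6. GGGCGG was matched 3 times for Col4a2, once each for Col4a1, Col4a5 and Col4a6, and not for Col4a4. The windows of Col4a1 and Col4a2 overlap, and the Col4a1 match is the printed site, which is also counted for Col4a2. TATAAA was matched in none of these 5 windows. Over all 32851 windows of the same length, 37.4% held CCAAT, 35.7% GGGCGG and 13.6% TATAAA. These matches are letters in a window and were not tied to the expression values.

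Col4a1 was at 644, 624, 595, 722 and 785 CPM in TD, at 983, 778, 725 and 977 in Strain and at 814, 912 and 1251 in No Strain. All No Strain libraries lay above all TD libraries, and Strain overlapped TD through 2 of its 4 libraries. Its log2 fold change was 0.56 ± 0.156 (SE) for No Strain minus TD (edgeR's quasi-likelihood test, adjusted p = 0.0311) and 0.36 ± 0.145 for Strain minus TD, which did not pass (adjusted p = 0.12). Col4a2 was at 466, 445, 457, 529 and 554 CPM in TD, at 712, 570.0, 556 and 692 in Strain and at 602, 679 and 909.8 in No Strain. Here every patch library lay above every TD library, with Strain replicate 3 only just so. Its log2 fold change was 0.58 ± 0.140 for No Strain minus TD (edgeR, adjusted p = 0.0183) and 0.37 ± 0.130 for Strain minus TD, which did not pass (adjusted p = 0.0845). The call for Col4a1 was lost without TD replicate 1, 2 or 3 or No Strain replicate 3 (edgeR, adjusted p 0.0578 to 0.159), and that for Col4a2 without No Strain replicate 3 (adjusted p = 0.0903), the library with the highest values of both; without it Col4a2 passed for Strain minus TD (adjusted p = 0.0463). Of 7 endothelial markers 4 were called higher in each comparison with TD, and their summed CPM was 419 to 521 in TD, 517 to 751 in Strain and 588 to 674 in No Strain. Their part in the rise of Col4a1 and Col4a2 was not tested. For No Strain minus TD, Col4a1 and Col4a2 stood at 0.08 and 0.20 with the neutrophil covariate (edgeR, adjusted p = 0.992 and 0.963). The muscle covariate left them at 0.39 and 0.45 (edgeR, adjusted p = 0.317 and 0.219).

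Col4a5 had the smallest p-values of the members. It was at 17.9, 22.8, 18.1, 25.2 and 27.5 CPM in TD, at 11.5, 8.87, 11.1 and 12.8 in Strain and at 9.36, 9.27 and 11.5 in No Strain. No patch library reached the lowest TD library. Col4a5 fell by 1.01 ± 0.154 on the log2 scale for Strain minus TD and by 1.15 ± 0.172 for No Strain minus TD (edgeR's quasi-likelihood test, adjusted p = 0.00539 and 0.0029), and both calls held in all 12 fits that left out 1 library. With the neutrophil list as a covariate its log2 fold change was -0.84 for Strain minus TD and -0.88 for No Strain minus TD (edgeR, adjusted p = 0.613 and 0.771), and with the muscle list -1.32 and -1.33 (adjusted p = 0.352 and 0.0298).

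Col4a6, its neighbour on the X chromosome, was at 6.09, 5.34, 9.77, 5.57 and 6.40 CPM in TD, at 1.84, 2.25, 4.52 and 2.68 in Strain and at 0.855, 2.96 and 1.30 in No Strain. The groups did not overlap with TD, although Strain replicate 3 came close to it. The log2 fold change was -1.22 ± 0.355 for Strain minus TD and -1.95 ± 0.414 for No Strain minus TD (edgeR, adjusted p = 0.0445 and 0.0108). The first of these calls was weak: it was lost in 9 of 12 fits that left out 1 library, those without any TD replicate, Strain replicate 1, 2 or 4, or No Strain replicate 3 (edgeR, adjusted p 0.0504 to 0.13). The second held in all 12. Neither held with the neutrophil covariate, where Col4a6 stood at -0.12 and -0.18 (edgeR, adjusted p = 0.982 and 0.991). That fit called 1 and 0 of all genes. The muscle covariate left Col4a6 at -1.15 and -1.89 (edgeR, adjusted p = 0.63 and 0.13).

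Col4a4 was at 6.83, 5.71, 8.69, 6.82 and 7.28 CPM in TD, at 2.98, 4.14, 3.93 and 4.27 in Strain and at 3.15, 3.99 and 1.67 in No Strain. Again no patch library reached TD. Col4a4 had a log2 fold change of -0.88 ± 0.220 for Strain minus TD and of -1.26 ± 0.248 for No Strain minus TD (edgeR, adjusted p = 0.0266 and 0.00775). The Strain call was lost without TD replicate 3 or 4 or Strain replicate 1 or 2 (edgeR, adjusted p 0.0505 to 0.0635). Neither call held with the neutrophil covariate, where Col4a4 stood at -0.16 and -0.20 (edgeR, adjusted p = 0.962 and 0.977). The muscle covariate left Col4a4 at -1.08 and -1.40 (edgeR, adjusted p = 0.492 and 0.0793). Col4a3, the lowest of the 6 chains, was at 2.39, 2.05, 4.15, 2.62 and 1.97 CPM in TD, at 1.04, 2.25, 2.22 and 1.25 in Strain and at 0.990, 1.72 and 0.697 in No Strain. Strain overlapped TD and No Strain did not. The log2 fold change was -0.63 ± 0.327 for Strain minus TD (edgeR, adjusted p = 0.222) and -1.21 ± 0.376 for No Strain minus TD (adjusted p = 0.0459), and the latter call was lost without TD replicate 1, 2, 3 or 4 or No Strain replicate 1 or 3 (adjusted p 0.0556 to 0.164). Col4a3 shares 563 exon bases with C430014B12Rik on the opposite strand, which had 76 reads in all 12 libraries, against 553 for Col4a3. The strand setting of the counting is not given in the sources used here. Col4a3 stood at 0.06 for No Strain minus TD with the neutrophil covariate (edgeR, adjusted p = 0.997).

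**Figure D2:**
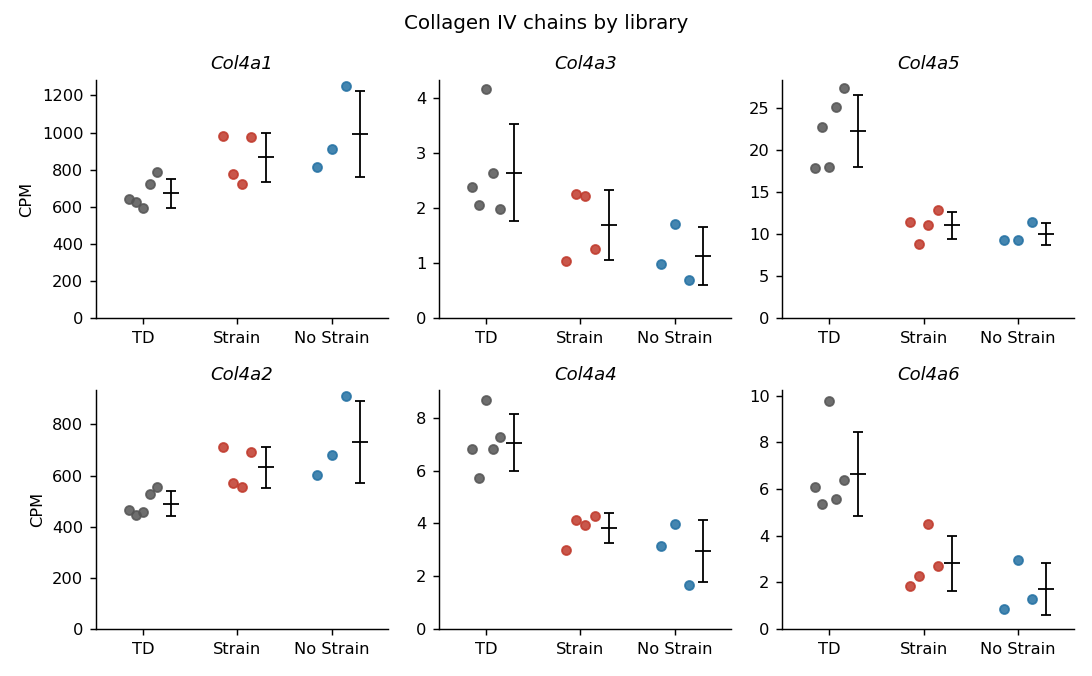
CPM of the 6 collagen IV chains in each library of TD, Strain and No Strain, with the group mean and SD as bars beside the points. Col4a1 and Col4a2 sit higher in No Strain than in TD, and Col4a4, Col4a5 and Col4a6 sit lower in every patch library than in every TD library.

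Because these levels differ widely, the chains were also compared per length, as CPM per kilobase of exon, within each library. This share was chosen after the values above had been seen. In TD the chains Col4a3, Col4a4, Col4a5 and Col4a6 made up 2.68, 3.09, 3.35, 2.94 and 2.97% of the summed collagen IV level. In Strain they made up 0.962, 1.15, 1.53 and 1.17%, and in No Strain 0.940, 1.01 and 0.686%. The mean was 3.01% ± 0.243 (SD, n = 5) in TD, 1.20% ± 0.235 (n = 4) in Strain and 0.879% ± 0.172 (n = 3) in No Strain, with no overlap between either patch group and TD. Col4a1 and Col4a2 thus held over 96% of that level in every library, and their ratio to each other was steady: the log2 ratio of Col4a2 to Col4a1 counts was -0.46 ± 0.05 (SD, n = 5) in TD, -0.45 ± 0.05 (n = 4) in Strain and -0.44 ± 0.02 (n = 3) in No Strain. The log2 ratio of Col4a5 to Col4a1 counts was also chosen after those values had been seen. It was -4.93 ± 0.17 in TD, -6.29 ± 0.19 in Strain and -6.61 ± 0.16 in No Strain. The patch libraries lay outside the range of TD. The share and this ratio restate the levels given above and are no separate support for them.

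**Figure D3:**
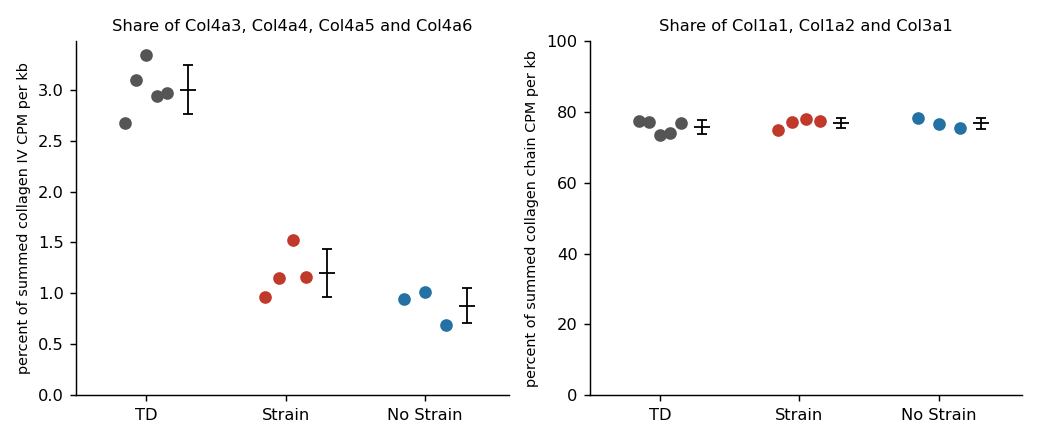
Left, the percent of the summed collagen IV level per kilobase that came from Col4a3, Col4a4, Col4a5 and Col4a6; right, the percent of the summed level per kilobase of all collagen chains that came from Col1a1, Col1a2 and Col3a1, each point 1 library, with group mean and SD. The left share is lower in all patch libraries than in TD, and the right share overlaps between the groups at 73.6 to 78.4%.

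Both other basement membrane members, Col15a1 and Col18a1, carry the precursors of endostatin-like fragments and lie in vessel and epithelial basement zones. Col15a1 (ENSMUSG00000028339, chr4:47208161-47313167, plus strand) was at 203, 189.7, 193, 222 and 239 CPM in TD, at 167, 125, 138 and 203 in Strain and at 139, 175 and 173 in No Strain. Only Strain replicate 4 fell inside the TD range. Col15a1 stood at a log2 fold change of -0.40 ± 0.137 for Strain minus TD and -0.37 ± 0.149 for No Strain minus TD, and neither comparison passed (edgeR, adjusted p = 0.0732 and 0.109), while the mean of both patch groups minus TD passed at -0.39 ± 0.118 (adjusted p = 0.0347). That call was lost without TD replicate 1, 3, 4 or 5, Strain replicate 3 or No Strain replicate 1 (edgeR, adjusted p 0.0502 to 0.0808), and without Strain replicate 4 the comparison Strain minus TD passed (adjusted p = 0.0236). Col18a1 had log2 fold changes of 0.31 and 0.41 for Strain and No Strain minus TD, neither past the threshold (edgeR, adjusted p = 0.219 and 0.121).

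Among the anchoring fibril and transmembrane chains, Col17a1 was lower and Col23a1 higher under both patches. Col17a1 (ENSMUSG00000025064, chr19:47646344-47692094, minus strand) encodes a chain of the hemidesmosome, which fastens basal keratinocytes to the basement membrane. It was at 499, 382, 701, 484 and 488 CPM in TD, at 237, 208, 409.7 and 191 in Strain and at 266, 279.7 and 156 in No Strain. Strain replicate 3 reached into the TD range and the other patch libraries lay below it. Col17a1 fell by 0.97 ± 0.261 on the log2 scale for Strain minus TD and by 1.13 ± 0.290 for No Strain minus TD (edgeR's quasi-likelihood test, adjusted p = 0.035 and 0.0237). The first call was lost in 7 of 12 fits that left out 1 library (TD replicate 1, 3, 4 or 5, or Strain replicate 1, 2 or 4, edgeR, adjusted p 0.0528 to 0.108), and the second without No Strain replicate 1 or 3 (adjusted p = 0.0559 and 0.0907). With the neutrophil list as a covariate the log2 fold change of Col17a1 was 0.01 and 0.40 (edgeR, adjusted p = 0.997 and 0.94). That fit called 1 and 0 of all genes for these comparisons.

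Basal keratinocyte markers overlapped between the groups in sum. Their summed CPM was 5168 to 6866 in TD, 4353 to 10821 in Strain and 4316 to 8151 in No Strain, and of the 6 genes 1 was called lower for Strain minus TD and 2 for No Strain minus TD. None was called higher, but 4 of the 6 had a positive log2 fold change for Strain minus TD and 3 for No Strain minus TD. The median of the 6 was 0.14 and -0.09. Itgb4, another hemidesmosome gene, and Krt15, a basal keratin gene, are named after their values were seen. Itgb4 passed in both, with log2 fold changes of -0.60 ± 0.125 and -0.65 ± 0.137 (edgeR, adjusted p = 0.014 and 0.0101), and Krt15 passed for No Strain minus TD at -2.56 ± 0.765 (adjusted p = 0.0405). With the basal keratinocyte list as a covariate, a choice made after seeing the data, 8 members were called for Strain minus TD, 2 for No Strain minus TD and 6 for both patches, against 8.58%, 1.99% and 8.95% of all genes in that fit. Col17a1 there stood at -0.65 for Strain minus TD and -0.36 for No Strain minus TD (edgeR, adjusted p = 0.0366 and 0.371). For both patches Col17a1 was at -0.50 and did not pass (edgeR, adjusted p = 0.0844).

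Col23a1 (ENSMUSG00000063564, chr11:51289920-51583918, plus strand) encodes a transmembrane collagen. It was at 28.1, 28.1, 27.9, 29.2 and 19.3 CPM in TD, at 74.5, 49.9, 50.3 and 31.9 in Strain and at 40.5, 76.2 and 70.4 in No Strain. Every patch library lay above every TD library. Col23a1 rose by 0.96 ± 0.239 for Strain minus TD and by 1.23 ± 0.256 for No Strain minus TD on the log2 scale (edgeR, adjusted p = 0.0272 and 0.00996). It was the 1 member called higher for Strain minus TD, and that call was lost without TD replicate 2, 3 or 4 or Strain replicate 1 or 2 (edgeR, adjusted p 0.0518 to 0.0679). The No Strain call held in all 12 fits. Of the remaining chains of this family, Col7a1, the anchoring fibril chain, had log2 fold changes of -0.53 and 0.01, Col13a1 of 0.23 and 0.45, and Col25a1 of 0.29 and 1.44 for Strain and No Strain minus TD; none passed (edgeR, adjusted p 0.0876 to 0.988). Col25a1 passed for No Strain minus TD by DESeq2 (adjusted p = 0.0444) and without No Strain replicate 1 (edgeR, adjusted p = 0.0412).

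Both tested network-forming chains were lower in the patch groups. Col8a1 and Col8a2 encode type VIII collagen, a short-chain collagen of vessel walls and of the membrane under the corneal endothelium. Col8a1 (ENSMUSG00000068196, chr16:57624258-57754737, minus strand) was at 139.5, 141, 152, 218 and 120.4 CPM in TD, at 46.5, 34.9, 92.1 and 68.3 in Strain and at 93.8, 84.1 and 78.6 in No Strain. All 7 patch libraries lay below TD. Col8a1 fell by 1.35 ± 0.261 on the log2 scale for Strain minus TD (edgeR, adjusted p = 0.0116), and its log2 fold change for No Strain minus TD, -0.85 ± 0.283, did not pass (adjusted p = 0.0578). The latter passed without Strain replicate 2 or 3, by DESeq2, by limma-voom, with library totals alone and with only those 2 groups in the fit (adjusted p 0.0172 to 0.0496). The difference between the patches was -0.50 ± 0.286 for Strain minus No Strain (edgeR, adjusted p = 0.881), with a 95% interval from -1.06 to 0.06.

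Col8a2 (ENSMUSG00000056174, chr4:126286793-126314330, plus strand) was at 19.7, 15.2, 29.1, 30.1 and 12.8 CPM in TD, at 6.56, 3.51, 8.02 and 4.79 in Strain and at 8.82, 10.1 and 4.18 in No Strain. Its patch libraries also lay below TD without overlap. It fell by 1.90 ± 0.353 and by 1.47 ± 0.384 on the log2 scale (edgeR, adjusted p = 0.0103 and 0.0246), and the No Strain call was lost without No Strain replicate 1 or 3 (adjusted p = 0.0612 and 0.0882). With the neutrophil list as a covariate the log2 fold change for No Strain minus TD was 0.37 (edgeR, adjusted p = 0.964). That fit called 0 of all genes. The remaining network-forming chain, Col10a1, known from hypertrophic cartilage, had 114 reads in all and failed the filter on low counts; 1 library, TD replicate 2, stood at 3.00 CPM and the others at 0 to 0.404. Beside these, 4 of 7 endothelial markers were called higher in each comparison with TD. Of 6 adipocyte markers 4 were called lower for Strain minus TD and 5 for No Strain minus TD, and of 7 muscle markers 5 and 1. The part of these cells in the lower Col8a1 and Col8a2 was not tested beyond the fit with the muscle covariate. In it Col8a1 stood at -0.86 for Strain minus TD (edgeR, adjusted p = 0.607). Col8a2 stood there at -1.70 for Strain minus TD and -1.33 for No Strain minus TD (edgeR, adjusted p = 0.502 and 0.236). That fit called 1 and 331 of all genes for these comparisons.

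Fibrillar collagen made up most of the collagen message and was close to level across the dressings. Per kilobase of exon, Col3a1, Col1a1 and Col1a2 were the highest members, at 2574, 2361 and 1114 CPM per kilobase over the 12 libraries. Together they held 75.8% ± 1.89 (SD, n = 5) of the summed collagen chain level in TD, 76.9% ± 1.41 (n = 4) in Strain and 76.8% ± 1.49 (n = 3) in No Strain. Col1a1 (ENSMUSG00000001506), a chain of type I collagen, was at 16952, 16866, 11479.5, 16365 and 17944 CPM in TD, at 13492, 9663, 15781 and 18719.9 in Strain and at 15028, 19347 and 14323 in No Strain. The groups overlapped throughout, and TD replicate 3 and Strain replicate 2 were low. Its log2 fold change was -0.14 for Strain minus TD, with a 95% interval from -0.54 to 0.25, and 0.03 for No Strain minus TD, with an interval from -0.40 to 0.46.

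Col1a2 (ENSMUSG00000029661), the partner chain of type I collagen, was at 14482, 15291, 10465, 14522 and 15433 CPM in TD, at 13206, 9082, 13373 and 16792 in Strain and at 13987, 17079.6 and 12437 in No Strain. Its libraries ordered much as those of Col1a1 did, with the same low ones. The log2 fold changes were -0.10 (95% interval -0.47 to 0.27) and 0.05 (-0.35 to 0.45). Col3a1 (ENSMUSG00000026043), the type III chain of early wound matrix, was at 27015, 28171, 17712, 25040.2 and 29414 CPM in TD, at 26028, 20602, 21771 and 32951 in Strain and at 23681, 27624 and 23150.4 in No Strain. Its highest library was in Strain and its lowest in TD. The log2 fold changes were -0.01 (95% interval -0.37 to 0.36) and -0.04 (-0.44 to 0.36). These estimates moved with the marker covariates: for Strain minus TD they were -0.64, -0.64 and -0.63 for Col1a1, Col1a2 and Col3a1 with the muscle list, and for No Strain minus TD 0.60, 0.52 and -0.08 with the neutrophil list (edgeR, adjusted p 0.567 to 0.993).

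Ratios between partner chains, which do not depend on library scaling, also overlapped between the groups. The log2 ratio of Col3a1 to Col1a1 counts was 0.67 ± 0.05 (SD, n = 5) in TD, 0.83 ± 0.27 (n = 4) in Strain and 0.62 ± 0.09 (n = 3) in No Strain. It was spread more widely in Strain, from 0.46 in replicate 3 to 1.09 in replicate 2. None of the 7 ratios examined, which also paired Col1a2 with Col1a1, Col5a2 with Col5a1, Col4a2 with Col4a1, Col6a3 with Col6a1, Loxl2 with Lox and P4ha2 with P4ha1, separated any pair of groups without overlap.

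**Figure D4:**
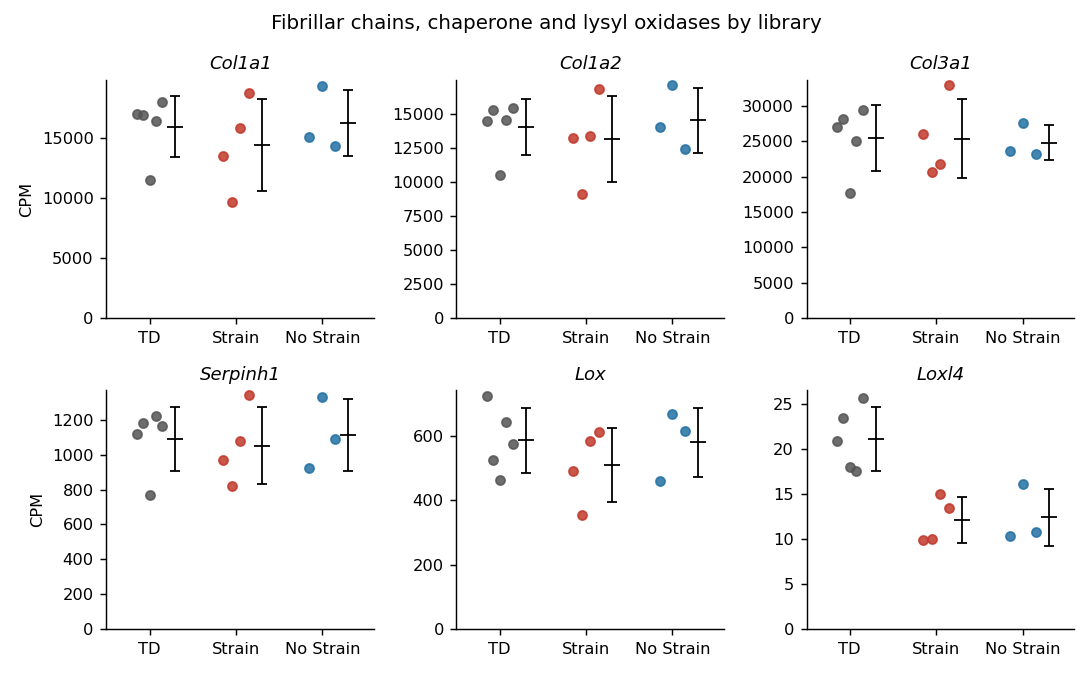
CPM of Col1a1, Col1a2, Col3a1, the chaperone gene Serpinh1 and the lysyl oxidase genes Lox and Loxl4 in each library, with group mean and SD. The groups overlap for 5 of these genes, while Loxl4 lies lower in every patch library than in every TD library.

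Col24a1 (ENSMUSG00000028197, chr3:145292472-145552011, plus strand), a minor fibrillar chain, was the 1 of 10 fibrillar chains that passed. It was at 22.6, 23.6, 16.1, 20.4 and 17.3 CPM in TD, at 28.7, 21.9, 18.8 and 32.9 in Strain and at 23.1, 37.2 and 39.5 in No Strain. No Strain replicate 1 and 2 of the Strain libraries lay within the TD range. It rose by 0.74 ± 0.213 on the log2 scale for No Strain minus TD (edgeR, adjusted p = 0.0362), was at 0.35 ± 0.199 for Strain minus TD (adjusted p = 0.265), and passed for both patches at 0.54 ± 0.177 (adjusted p = 0.0444). The No Strain call was lost without TD replicate 3, 4 or 5 or No Strain replicate 2 or 3 (edgeR, adjusted p 0.0639 to 0.146), and the call for both patches was lost without any library other than Strain replicate 3 or No Strain replicate 1 (adjusted p 0.0514 to 0.109). The other chains, Col5a1, Col5a2, Col5a3, Col11a1, Col11a2 and Col27a1, which nucleate or regulate fibrils, had log2 fold changes from -0.39 to 0.27 for Strain minus TD and from -0.54 to 0.26 for No Strain minus TD, and none passed. Without Strain replicate 3, Col11a1 passed for Strain minus TD at -0.84 (edgeR, adjusted p = 0.0366).

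The chains of type VI collagen, which forms beaded filaments around cells, lay slightly below TD in both patch groups and did not pass. Col6a1, Col6a2 and Col6a3 had log2 fold changes of -0.25, -0.26 and -0.23 for Strain minus TD and of -0.25, -0.25 and -0.14 for No Strain minus TD (edgeR, adjusted p 0.375 to 0.669). Col12a1, Col14a1 and Col16a1, which sit on the surface of fibrils, had values of -0.13, -0.39 and -0.41 for Strain minus TD and of 0.43, -0.43 and -0.29 for No Strain minus TD (edgeR, adjusted p 0.117 to 0.8). Col26a1 (ENSMUSG00000004415, chr5:136741759-136883209, minus strand), a little-studied chain, was at 2.10, 3.41, 1.75, 1.98 and 1.58 CPM in TD, at 0.497, 0.675, 0.818 and 1.05 in Strain and at 1.04, 0.858 and 1.25 in No Strain. All patch libraries lay below TD, at a depth of 401 reads over the 12 libraries. Its log2 fold change was -1.50 ± 0.280 for Strain minus TD and -1.04 ± 0.299 for No Strain minus TD (edgeR, adjusted p = 0.0101 and 0.034). The first call held in all 12 fits that left out 1 library, and the second was lost without TD replicate 1, 2 or 4 or any No Strain replicate (edgeR, adjusted p 0.053 to 0.103). Col28a1 had log2 fold changes of -0.35 and -0.51, neither past the threshold (edgeR, adjusted p = 0.459 and 0.299).

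**Figure D5:**
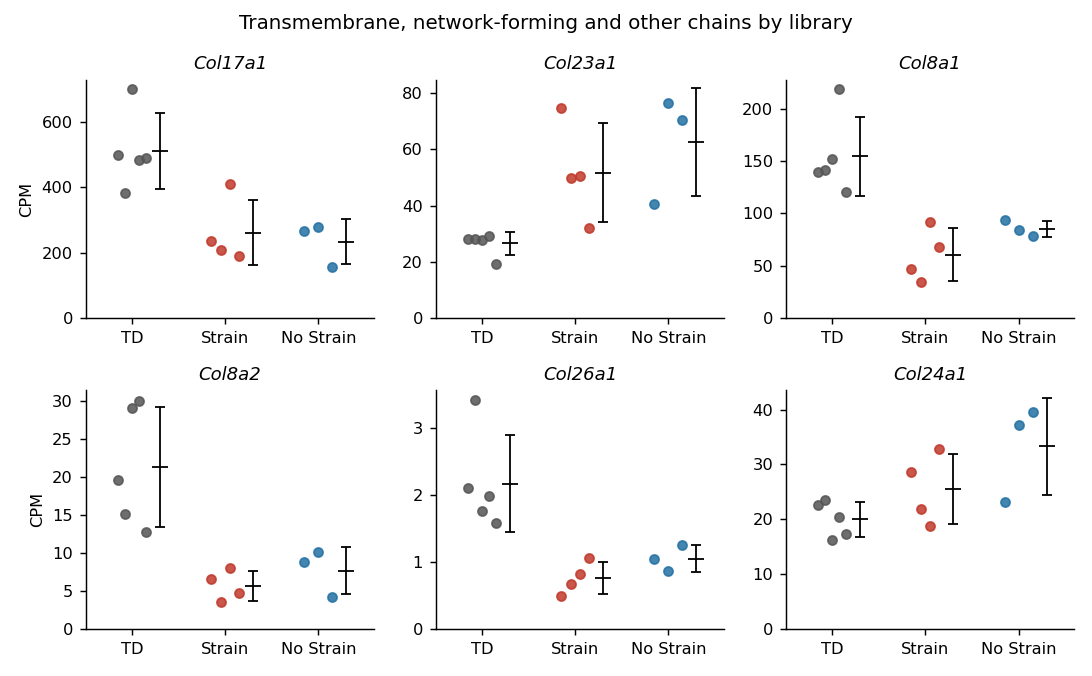
CPM of the transmembrane chains Col17a1 and Col23a1, the network-forming chains Col8a1 and Col8a2, Col26a1 and the minor fibrillar chain Col24a1 in each library, with group mean and SD. Col23a1 lies higher in every patch library than in TD, Col8a1, Col8a2 and Col26a1 lie lower in all of them, Col17a1 overlaps TD through 1 Strain library, and Col24a1 overlaps through 1 No Strain and 2 Strain libraries.

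Of the 13 processing genes, Loxl4 alone passed, in both patch groups. Loxl4 (ENSMUSG00000025185, chr19:42593982-42612813, minus strand) encodes a lysyl oxidase, a copper enzyme that starts crosslinks between collagen chains. It was at 20.9, 23.5, 17.9, 17.5 and 25.6 CPM in TD, at 9.89, 9.99, 15.0 and 13.5 in Strain and at 10.3, 16.0 and 10.8 in No Strain. No patch library reached TD. Loxl4 fell by 0.80 ± 0.182 for Strain minus TD and by 0.77 ± 0.200 for No Strain minus TD on the log2 scale (edgeR's quasi-likelihood test, adjusted p = 0.0192 and 0.0244). The Strain call was lost without Strain replicate 2 (edgeR, adjusted p = 0.0672), and the No Strain call without TD replicate 2 or No Strain replicate 1 or 3 (adjusted p 0.0516 to 0.1). With the title letter as a covariate neither call held (edgeR, adjusted p = 0.0634 and 0.0616). Per kilobase Loxl4 was the lowest of the 5 lysyl oxidases, at 3.78 CPM per kilobase over all libraries against 123 for Loxl1 and 117 for Lox.

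Lox (ENSMUSG00000024529), the main lysyl oxidase of dermis, was at 723, 526, 462, 643 and 574 CPM in TD, at 490.3, 353, 584 and 611 in Strain and at 459, 666 and 615 in No Strain. These groups overlapped. Lox had a log2 fold change of -0.20 (95% interval -0.55 to 0.15) for Strain minus TD and of -0.01 (-0.40 to 0.37) for No Strain minus TD. Serpinh1, which encodes the collagen chaperone HSP47, was at 1122, 1185, 767, 1222 and 1163 CPM in TD, at 973, 822, 1078 and 1342 in Strain and at 922, 1333 and 1089 in No Strain. It too overlapped, with log2 fold changes of -0.05 (95% interval -0.39 to 0.29) and 0.03 (-0.34 to 0.40).

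The remaining 10 processing genes did not pass in any comparison. Pcolce, which enhances the cutting of procollagen, and Bmp1, which cuts it, had log2 fold changes of -0.05 and 0.19 for Strain minus TD and of 0.02 and 0.26 for No Strain minus TD. The prolyl hydroxylase genes P4ha1 and P4ha2 and the lysyl hydroxylase genes Plod1 and Plod3 lay between -0.10 and 0.04 for Strain minus TD and between -0.23 and 0.16 for No Strain minus TD. The lysyl oxidase genes Loxl1 and Loxl3 had values of 0.05 and -0.04 for Strain minus TD and of 0.06 and -0.01 for No Strain minus TD. Plod2 and Loxl2 are named here after their values were seen. Plod2, whose product hydroxylates the lysines at the ends of the chains, was at 84.7, 48.4, 36.1, 60.6 and 44.0 CPM in TD and at 25.4, 27.1 and 32.4 in No Strain, without overlap, and its log2 fold change of -0.95 ± 0.314 missed the threshold (edgeR, adjusted p = 0.057). Loxl2 was at 436, 406, 242, 404 and 402 CPM in TD and at 638, 415, 375 and 755 in Strain. It had a log2 fold change of 0.53 ± 0.235 for Strain minus TD (edgeR, adjusted p = 0.157). Plod3 shares 529 exon bases with Znhit1 and Loxl3 shares 535 with Htra2, each on the opposite strand, so their values are uncertain.

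Of 43 other genes of collagen synthesis, secretion, cleavage and uptake that are no members, 41 were tested. For Strain minus TD 5 passed (1 higher, 4 lower), for No Strain minus TD 7 (1 higher, 6 lower), for both patches 8 (2 higher, 6 lower), and for Strain minus No Strain 0, with 1 gene at an unadjusted p under 0.05. As shares of the 41 these counts were below those of all genes called, 12.6%, 17.8% and 24.4%. By family, 2 of 8 other collagen chains, 1 of 15 other folding genes, 2 of 10 secretion and cleavage genes and 1 of 8 binding and uptake genes were called lower for No Strain minus TD. These counts moved with single libraries as well: without Strain replicate 2 the count for Strain minus TD was 1, without Strain replicate 1 or TD replicate 2 it was 2, and without TD replicate 3, TD replicate 4 or Strain replicate 4 it was 3. For No Strain minus TD it was 2 without No Strain replicate 1 or 3, 3 without No Strain replicate 2 or TD replicate 2 and 4 without TD replicate 4. The share of all genes called fell in each of these fits too. It was 4.75 to 10% for Strain minus TD and 7.88 to 13.4% for No Strain minus TD.

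Pcolce2 (ENSMUSG00000015354, chr9:95637601-95698096, plus strand), a second enhancer of procollagen cleavage, had the smallest p of these. It was at 75.7, 81.5, 71.6, 55.7 and 105 CPM in TD, at 24.0, 19.9, 23.5 and 22.6 in Strain and at 10.2, 24.5 and 11.4 in No Strain. The patch libraries lay far below the lowest TD library. Pcolce2 fell by 1.79 ± 0.253 for Strain minus TD and by 2.34 ± 0.292 for No Strain minus TD on the log2 scale (edgeR, adjusted p = 0.00452 and 0.00198), in all 12 fits that left out 1 library. Its relative among the members, Pcolce, was near 0 in both comparisons. Itga1, the integrin subunit that binds collagen IV and I, was at 28.1, 22.8, 25.7, 26.4 and 27.8 CPM in TD, at 39.6, 39.9, 28.4 and 40.7 in Strain and at 38.7, 45.3 and 50.04 in No Strain. All patch libraries lay above TD, Strain replicate 3 only just. It rose by 0.51 ± 0.114 and by 0.77 ± 0.123 on the log2 scale (edgeR, adjusted p = 0.0184 and 0.0036), and the Strain call was lost without Strain replicate 2 (adjusted p = 0.0621).

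A further 3 genes outside the member list were lower in both comparisons with TD. Tll2, a tolloid-like protease of the Bmp1 family, was at 0.202 to 2.88 CPM in TD, 0.0779 to 0.585 in Strain and 0.0450 to 0.215 in No Strain, with overlap through TD replicate 4; its log2 fold changes were -2.50 ± 0.702 and -3.47 ± 0.876 (edgeR, adjusted p = 0.0396 and 0.0219). The first was lost in 9 of 12 fits that left out 1 library, those without TD replicate 1, 2, 3 or 5, any Strain replicate or No Strain replicate 2 (edgeR, adjusted p 0.0514 to 0.08), and the second without No Strain replicate 1 or 3 (adjusted p = 0.0815 and 0.0679). Col22a1, a chain of muscle-tendon junctions, was at 0.921 to 1.57 CPM in TD, 0.225 to 0.934 in Strain and 0.465 to 0.601 in No Strain, and its log2 fold changes were -1.25 ± 0.325 and -1.27 ± 0.360 (edgeR, adjusted p = 0.0302 and 0.0332). Both calls were lost in 6 of 12 such fits, without TD replicate 2, 3 or 4 in each and without Strain replicate 1, 2 or 4 or any No Strain replicate respectively (edgeR, adjusted p 0.0545 to 0.113). Skeletal muscle markers fell with Col22a1, with 5 of 7 called lower for Strain minus TD and 1 of 7 for No Strain minus TD. Their part in its fall was not tested beyond the covariate fit given next. With the muscle list as a covariate the log2 fold changes of Col22a1 were -0.64 and -0.86 (edgeR, adjusted p = 0.779 and 0.367), in a fit that called 1 and 331 of all genes. Pepd, which frees proline from collagen breakdown products, was at 54.1 to 78.5 CPM in TD, 47.8 to 54.4 in Strain and 49.3 to 56.2 in No Strain, a small overlap, with log2 fold changes of -0.40 ± 0.104 and -0.39 ± 0.114 (edgeR, adjusted p = 0.0312 and 0.0378). Its calls were lost without TD replicate 2, 4 or 5 in each, and without Strain replicate 1, 2 or 3 or any No Strain replicate respectively (edgeR, adjusted p 0.0558 to 0.129).

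The comparison of the imposed strain itself, Strain minus No Strain, left wide intervals for single chains. Its 3 members with the smallest p-values did not pass. Col25a1 was at 4.52, 1.26, 1.79 and 2.54 CPM in Strain and at 1.71, 5.75 and 9.34 in No Strain, a log2 difference of -1.15 ± 0.574 (unadjusted p = 0.0689 and adjusted p = 0.872 by edgeR). Col11a1 was at 22.6, 12.5, 40.6 and 16.0 CPM in Strain and at 36.1, 36.0 and 36.0 in No Strain, with a difference of -0.65 ± 0.340 (edgeR, adjusted p = 0.872), and Col8a1 is given above. In all 3 the patch groups overlapped, for Col8a1 through Strain replicate 3 at 92.1 CPM. For the chains with the smallest errors the intervals were narrower: the difference of Col4a2 was -0.21 (95% interval -0.50 to 0.08), that of Col4a5 0.14 (-0.21 to 0.48) and that of Col15a1 -0.04 (-0.34 to 0.27). None of the 46 members separated the patch groups without overlap, against 5.62% of all genes.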

How the data were processed

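Per the labels' protocols, RNA from snap-frozen day 10 wounds was enriched with oligo(dT) beads and made into NEBNext Ultra libraries. The deposited files hold whole-number read counts per Ensembl gene; the submitters' processing notes name bcl2fastq 2.17, FastQC, cutadapt, STAR, featureCounts, DESeq2 and GRCm38, without their roles. Annotation release, strand setting and treatment of shared reads are not given in the sources used here. Symbols, exon lengths and coordinates came from GENCODE M21 (54165 of 54232 identifiers matched) and promoter windows from RefSeq (35 of 47 members matched). Counts were fitted with edgeR 4.0.16 (filterByExpr with a minimum of 10 and 15 in total, TMM, robust quasi-likelihood test, 12 libraries, Benjamini-Hochberg over 18618 genes), after tests on simulated data. DESeq2 1.42.0 and limma 3.58.1 were alternatives, with other scalings, filters and covariates and each library left out in turn. Members and lists were chosen with earlier results of these data known. Members past the threshold in any comparison with TD, and Col1a1, Col1a2, Col3a1, Lox and Serpinh1, are given by library; for Strain minus No Strain, the 3 smallest p; of the other collagen genes, those past it with both patches.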

Additional observations from a re-analysis of the deposited data

Results flagged for a closer look

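Outlying libraries were screened for in TD and Strain only, and No Strain, with 3 libraries, was not screened. For independent, normal values chance gives about 1 in 20, or 5.2 of the 104 group values screened. Many of these values move together, such as Col1a1, Col1a2, Serpinh1 and the share of reads from the members. The number flagged therefore does not show an excess of outlying libraries. In 13 of the 104, the highest or lowest library stood far from the other libraries of its group. Of these, 5 came from TD replicate 3: Col4a6 was at 9.77 CPM against 6.40 in the next library, Col1a1 at 11479.5 against 16365, Col1a2 at 10465 against 14482, Serpinh1 at 767 against 1122, and the share of reads from the members at 5.63% against 7.85%. TD replicate 5 was low in Col23a1, at 19.3 CPM against 27.9, and high in summed endothelial markers, at 521 CPM against 433. TD replicate 2 was high in Col26a1 (3.41 CPM against 2.10) and TD replicate 4 in Col11a1 (44.7 CPM against 28.2). TD replicate 1 was high in summed neutrophil markers (1569 CPM against 550.1) and low in the log2 ratio of P4ha2 to P4ha1 (-0.60 against -0.32). That neutrophil sum came mostly from S100a8 and S100a9. TD replicate 1 had 336 reads of Cxcr2 and 779 of Csf3r, against 332 and 1075 in TD replicate 2. Strain replicate 3 was low in Itga1 (28.4 CPM against 39.6) and in the log2 ratio of Loxl2 to Lox (-0.64 against 0.23).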

How the results depend on the processing

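Of 104 single-gene results, 50 passed the threshold, and 13 alternatives and 12 fits without 1 library were run. Members called stayed at 0 for Strain minus No Strain in all of them. For Strain minus TD (9 members) the count was 4 with the title letter L or R as a covariate and 0 with the muscle or neutrophil list, and ran from 4 to 11 with 1 library left out. For No Strain minus TD (12) it was 7 without a filter, 5 with the title letter, 1 with the muscle list, 0 with the neutrophil list and 2 with the basal keratinocyte list, and ran from 4 to 13. For both patches (14) it was 0 with the muscle or neutrophil list and 6 with the basal keratinocyte list. Pathway genes for Strain minus TD (5) came to 3 at a mean of at least 5 CPM, 1 with the title letter, 0 with the muscle or neutrophil list, 9 with the fibroblast list and 3 with the basal keratinocyte list, and ran from 1 to 5. For No Strain minus TD (7) they came to 4 at that minimum, 4 with the title letter, 2 with the muscle, 0 with the neutrophil, 11 with the fibroblast and 3 with the basal keratinocyte list, and ran from 2 to 7. For both patches (8) they came to 4 at that minimum, 5 with the title letter, 1 with the muscle and 0 with the neutrophil list. The share of all genes called moved as well. For Strain minus TD and No Strain minus TD it was 15.1% and 20.3% at a mean of at least 5 CPM. It was 4.28% and 6.67% without a filter, 4.29% and 11.5% with the title letter and 15% and 20.9% with the fibroblast list. With library totals alone, members called for No Strain minus TD were 4 higher and 10 lower, and of all genes 1257 were higher and 2046 lower against 1741 and 1564. The neutrophil list as a covariate reversed Col17a1 (0.014 for Strain minus TD, 0.40 for No Strain minus TD, 0.21 for both patches), Col24a1 (-0.10 for No Strain minus TD, -0.14 for both), Col4a3 (0.0593 for No Strain minus TD, 0.14 for both), Col22a1 (0.47 and 0.14 in the same comparisons), Col8a2 (0.37 for No Strain minus TD) and Col8a1 (0.19 for both); the cause was not tested. None of these reversed values passed (edgeR, adjusted p 0.94 to 0.997). Of the 50 passing single-gene results, DESeq2 kept 50, library totals 49, limma-voom 45, no filter 38, the fibroblast list 50, the title letter 26, the basal keratinocyte list 23, the muscle list 3 and the neutrophil list 0. Of the 54 that did not pass, 30 changed sign under an alternative or with 1 library left out, without passing there. The neutrophil and basal keratinocyte covariates were chosen after seeing the data. No paired analysis was possible because the title numbers do not repeat across groups and the group label carries no replicate number. Depth limits Col26a1, Col4a3, Col10a1, Tll2 and Col22a1, with 401, 553, 114, 241 and 243 reads in all.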
